A study of Mus musculus with 6 samples.

Results

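HCFC1 (host cell factor C1) binding was mapped in control Hepa1-6 cells, and every row of the deposited HCFC1 peak list for these cells was taken, 36147 peaks of the 70638 in the 3 HCFC1 lists of the series. The cells are a mouse hepatoma line, labelled wild type and hepatocyte. They had received a pool of scrambled control siRNA (small interfering RNA), 200 nM in total over 96 h in 2 transfections of 100 nM each. The assay was chromatin immunoprecipitation followed by sequencing (ChIP-seq), with 30 µg of chromatin and an HCFC1 antibody. The series also knocked down HCFC1 and ERRα. According to the authors' note, material from 2 separate immunoprecipitations went into the library as a pool. The map is therefore 1 library with no replicate check, its read depth is unknown, and no test was made. Intervals below are 95% intervals and cover counting error only. A peak list does not measure expression, so the hepatocyte label was not checked against marker RNA, and the peaks at hepatocyte marker genes are given below.

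HCFC1 is a large chromatin coregulator without a DNA-binding domain of its own. It is brought to DNA by sequence-specific proteins such as THAP11, ZFP143, GABPA and YY1, and it holds histone methyltransferases, demethylases, deacetylases and the deubiquitinase BAP1 at the promoters it occupies. It is known from cell culture for its part in cell division and in the expression of housekeeping genes. THAP11 and ZFP143 recognise an element that contains ACTACAA, ETS proteins such as GABPA recognise CCGGAAG, and YY1 recognises AAGATGG.

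Among the promoters matched to a RefSeq sequence, the highest-scoring one that held ACTACAA was that of Katnal1, which encodes a katanin-like protein that acts on microtubules. Its peak had rank 9 of all peaks by score. The 300 bases from 250 before to 50 after its RefSeq start (mm10, chr5:148928598-148928897, minus strand) are printed to show how the element lies in a strongly bound promoter. Capitals mark ACTACAA, which stands once on the gene's strand, 22 bases before the start, and once on the other strand, 78 bases before it.
Katnal1 promoter: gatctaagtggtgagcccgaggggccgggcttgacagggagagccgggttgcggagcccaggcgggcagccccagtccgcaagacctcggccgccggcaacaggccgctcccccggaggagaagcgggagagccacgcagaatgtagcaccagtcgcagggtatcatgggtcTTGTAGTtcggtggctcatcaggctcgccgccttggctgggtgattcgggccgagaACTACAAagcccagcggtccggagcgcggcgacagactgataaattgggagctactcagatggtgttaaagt

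Sites of 30 bases (mm10) from 7 further promoters with high peak scores are given next, each read in the direction of the element with its genome strand named, with ACTACAA in capitals. Fyco1, Ncln and Unk had the next highest scores among promoters with the element. The other 4 were chosen after their values were seen, because they show a longer form of the element that is described below.
Fyco1 (chr9:123851887-123851916, plus strand): gcgcgcggACTACAActcccggcatgcctc
Ncln (chr10:81496579-81496608, minus strand): acagtgggACTACAActtccagggggctcc
Unk (chr11:116030109-116030138, plus strand): gtgactagACTACAAttaccacaaggcatt
Erp44 (chr4:48279789-48279818, plus strand): ggacgggaACTACAAttcccagagggctgt
Stau1 (chr2:166996441-166996470, minus strand): cctgggaaACTACAActcccaacatgcctc
Fen1 (chr19:10204133-10204162, plus strand): aacatgggACTACAAgtcccacaatgccac
Stk25 (chr1:93635744-93635773, plus strand): aaattgagACTACAAgtcccagcaggctgc

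For comparison, the pair of highest-scoring promoters with the ETS element CCGGAAG and the pair with the YY1 element AAGATGG are shown in the same way, with those letters in capitals.
2610306M01Rik (chr6:86849435-86849464, minus strand): ccacccacCCGGAAGtgacctgccaccgga
Nedd8 (chr14:55671903-55671932, minus strand): agagtgacCCGGAAGcagaagtgttccttg
Rcc1l (chr5:134176735-134176764, minus strand): ggtgacacAAGATGGcggcgcccataagcg
Thap4 (chr1:93755034-93755063, plus strand): ggacagggAAGATGGacgcaggtaaggagg

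Most HCFC1 peaks were narrow and weak, and a small number were broad and strong. The median width was 393 bp (389 to 396), with quartiles of 281 and 728 bp and a range from 226 to 7678 bp. Peaks of at least 1000 bp made up 16.4% of the list, and 232 peaks were at least 3000 bp wide. The peak score is the authors' own value for each peak. Its scale is not stated, so it serves here only to rank and bin peaks within this list. Scores ran from 13 to 30879 with a median of 35. The top decile, 3615 peaks with a score of at least 178, held 26.4% of the 22.25 Mb covered by peaks.

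Strong peaks sat at transcription starts and weak ones mostly did not. The deposited distance runs from the peak centre to the nearest start, and 11343 peaks (31.4%, 30.9 to 31.9%) lay within 1000 bp. In the top decile by score 92.8% of peaks did so, and in decile 2 78.2%. The median absolute distance rose from 173 bp in the top decile (166 to 181) to 13907 bp in the bottom decile (12797 to 14978). Among the 11343 peaks near a start, 29.0% were centred upstream of it, and the median centre was 130 bp downstream (124 to 137). For the top decile the median centre was 108 bp downstream. Over the whole list, 8.47% of peaks lay within 100 bp of a start and 22.9% between 100 and 1000 bp. A further 18.2% lay between 1000 and 5000 bp, and 40.7% lay over 10 kb away.

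**Figure D1:**
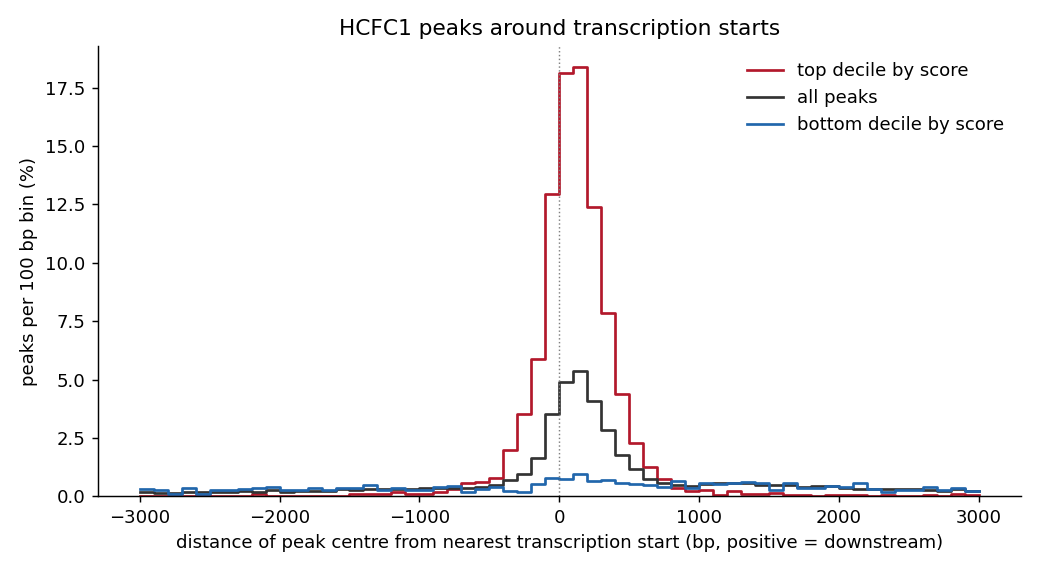
Share of peaks in each 100 bp bin of distance from the nearest transcription start to the peak centre (x axis, bp, positive values downstream; y axis, percent of the peaks in each group) for all 36147 peaks, the top decile and the bottom decile by score. The top decile piles up just downstream of the start, where its median was 108 bp. The bottom decile rises far less there, to 0.941% in its highest bin, 100 to 200 bp downstream, beside 18.4% of the top decile.

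The place labels give a different picture unless they are read with the distance, because 48.98% of the 11343 peaks near a start did not carry the promoter label. Peaks with that label were centred from -1000 to 914 bp. Of the peaks near a start, 23.7% were labelled intron, 12.3% exon and 9.27% 5' UTR. The 13774 intron peaks divided accordingly: 48.8% lay in a first intron, and 37.7% of those were within 1000 bp of a start, against 2.21% of the peaks in later introns. The second strongest peak of the list was such a case, with a score of 16485 in intron 1 of Usp5, which encodes a deubiquitinase that takes apart free ubiquitin chains (chr6:124827069-124830897, centre 501 bp downstream of the start). Ddx23, a spliceosomal RNA helicase, had a peak of score 12073 in intron 1, centred 140 bp downstream. The strongest peak labelled intergenic, with a score of 12968, spanned 4825 bp at Banp, which encodes a DNA-binding protein of CpG-island promoters, and its deposited distance from the start was -1217 bp (chr8:121946863-121951688).

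Width and score differed together between the labels. Promoter peaks had a median width of 919 bp and a median score of 96, and 5' UTR peaks 954 bp and 96. Exon peaks had medians of 490 bp and 43, intron peaks 354 bp and 32, and intergenic peaks 324 bp and 30. The remaining labels were rare: 806 peaks at transcription termination sites, 412 in 3' UTRs and 328 in non-coding transcripts, with median scores of 36, 29 and 54. The top decile by score took in 33.3% of promoter peaks, 28.4% of 5' UTR peaks, 5.39% of intron peaks and 1.24% of intergenic peaks. The top decile itself was 53.3% promoter and 3.62% intergenic, and the bottom decile 4.87% promoter and 39.0% intergenic.

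**Figure D2:**
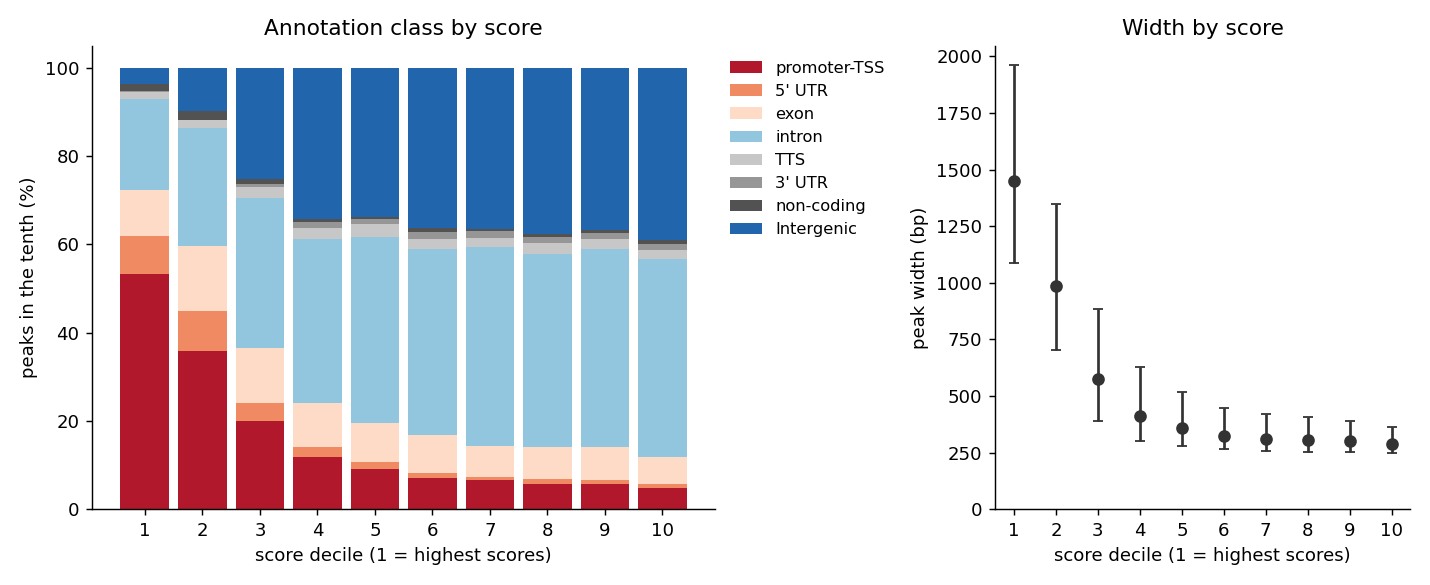
Left, share of each place label among the peaks (y axis, percent) in deciles of the list by score (x axis, 1 is the highest). Right, median peak width in the same deciles (y axis, bp), with bars for the quartiles. The promoter label falls from 53.3% of the top decile to 4.87% of the bottom decile, and the median width falls from 1450 to 288 bp.

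The leading peaks of the gene-body labels were also near starts. Chmp4b, an ESCRT-III subunit, had the strongest 5' UTR peak (score 7588, 132 bp downstream), followed by the kinase gene Mapkapk5 (5564). Pprc1, a coactivator related to PGC-1, had the strongest exon peak (7100, 177 bp downstream in exon 1). Naa38, a subunit of an N-terminal acetyltransferase, had the strongest peak labelled as a termination site (8272), and its centre was 659 bp downstream of its own start. Away from starts, scores were lower: the strongest 3' UTR peak, at Phldb3, had a score of 1029. The widest peaks of all were at Car11 (7678 bp, score 2184) and Kmt2d (7449 bp, score 1923), which encodes an H3K4 methyltransferase. Pdgfa had a peak of 6161 bp with a score of 273, and all of the 10 widest peaks were in the top decile by score.

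A few high scores lay in sequences with near-identical copies elsewhere in the genome, where the placing of reads is uncertain. The highest score of the list, 30879, was on an unplaced contig at the pseudogene Pisd-ps3. Rn45s, the 45S ribosomal RNA precursor, held the strongest peak labelled non-coding (4339, 5832 bp wide). Of the 14707 peaks over 10 kb from a start, the strongest (5804, 505 bp wide, nearest to Mir101c) and the third strongest (3667, 509 bp wide, nearest to Lrrc4c) lay in satellite repeats. The rest of the 5 strongest distal peaks, nearest to Sipa1l3 (4004, 2250 bp wide), Zfp958 (3518, 2134 bp) and Gm21119 (3250, 844 bp), had CpG island labels. The part of near-identical copies in these scores was not tested.

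Peaks labelled intron or intergenic numbered 24341, and their detailed labels name what lies under the centre. In 26.3% it was a repeat and in 8.82% a CpG island. The 2146 CpG island peaks had a median score of 84 (80 to 90), and 72.9% lay within 1000 bp of a start. The 6400 repeat peaks had a median score of 28. LTR elements made up 34.9% of them, SINEs 27.9% and LINEs 17.4%, and all 3 classes had a median score of 28. Over the whole list, repeat labels rose from 2.05% of the top decile to 25.2% of the bottom decile. The intron and intergenic labels rose as well, from 20.55% and 3.62% to 44.85% and 39.0%. Their part in the rise of the repeat labels was not tested.

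The distal peaks were spread unevenly over the chromosomes, and more so than the promoter peaks. Peaks over 10 kb from a start had a median score of 29 and a median width of 316 bp. Chromosome 15 held 16.1 of them per Mb and chromosome 19 held 13.3, against 1.64 on chromosome 9, 1.47 on 14, 1.43 on 16, 1.25 on 12 and 0.416 on X. The density on chromosome 15 was 12.9 times that on chromosome 12. The median score of distal peaks was between 28 and 31 on every autosome and 40 on X. The share of protein-coding genes with a promoter peak varied less, from 17.98% on chromosome 14 to 31.4% on chromosome 19 among the autosomes, with 30.8% on chromosome 15 and 8.39% on X. Chromosome 5 changed along its length, at a boundary chosen after the values were seen. Up to 110 Mb it had 0.846 distal peaks per Mb and promoter peaks at 20.8% of its protein-coding genes, and beyond that 20.0 per Mb and 31.6%.

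**Figure D3:**
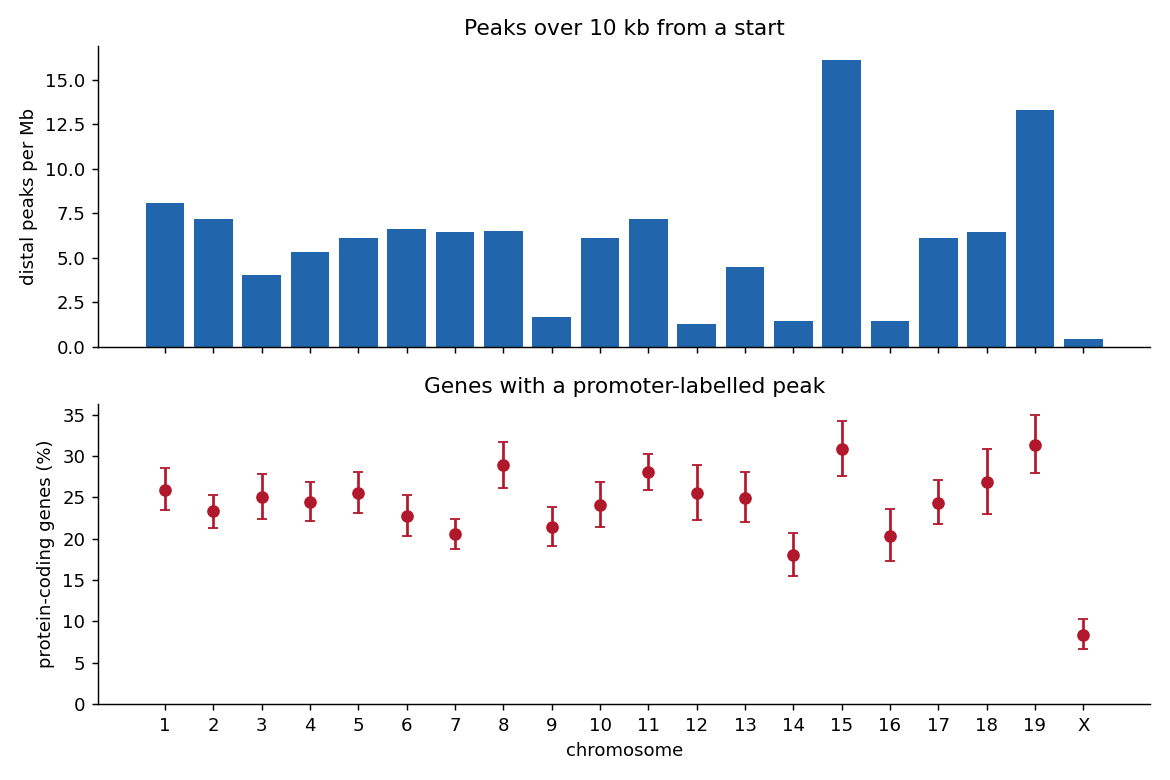
Top, peaks over 10 kb from a transcription start per Mb of each chromosome (bars). Bottom, percent of the protein-coding genes of each chromosome with a promoter-labelled peak, with exact 95% intervals for counting error. Chromosomes 15 and 19 stand highest for distal peaks at 16.1 and 13.3 per Mb, and X lowest in both panels.

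The 10 genes with the most peaks lay mostly on chromosome 15. The 14421 genes with an assigned peak had a median of 2, and 45.2% had exactly 1. At least 5 peaks were assigned to 12.3% of genes and at least 10 to 315 genes, which held 12.4% of all assigned peaks. On chromosome 15 lay 58 of these 315 genes (18.4%), beside 714 of all 14421 genes with a peak. Oxr1, an oxidation resistance gene, had 46 peaks over 516.3 kb, of which 34 were in introns. Its highest score was 162 and its median score 38. Myo10, an unconventional myosin of filopodia, had 38 peaks with a median score of 32.5. Ywhaz, a 14-3-3 protein, had 33, of which 29 were labelled intergenic. Of the 10 genes with the most peaks, 8 were on chromosome 15 and Pisd-ps3 was on the unplaced contig.

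Where a gene had several peaks and at least 1 of them near a start, the strongest usually lay near a start. Of 5945 genes with several peaks and at least 1 within 1000 bp of a start, 81.1% (80.1 to 82.1%) had their highest score there. Genes whose peaks all lay within 1000 bp are included and fall in this share by definition. The share among genes that also had a peak farther away was not computed. A promoter-labelled peak was assigned to 5567 genes. Of these, 58.1% had a further peak somewhere and 195 had at least 2 promoter-labelled peaks, with a maximum of 5. Neighbouring peaks were a median of 12.3 kb apart, and 7.997% of gaps were no longer than 500 bp.

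By gene type, 87.5% of peaks were assigned to protein-coding genes, 11.3% to non-coding RNA genes and 0.835% to pseudogenes. Protein-coding genes took 95.4% of the top decile by score and 80.8% of the intergenic peaks. Of the 21900 protein-coding genes in the RefSeq table, 5151 (23.5%) had a promoter-labelled peak and 9689 (44.2%) had a peak centred within 1000 bp of a start. The median promoter score of the 5151 genes was 107 (101 to 111).

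Assignment of each peak to 1 gene left out partners that share a promoter. The RefSeq promoter table (GRCm38.p6, the same build) held 1650 pairs of neighbouring genes whose starts point away from each other within 1000 bp. In 995 of them (60.3%, 57.9 to 62.7%) 1 HCFC1 peak spanned both starts. For pairs of protein-coding genes this was 607 of 737 (82.4%, 79.4 to 85.0%). A peak covered 35.5% (34.8 to 36.2%) of the 18178 single protein-coding starts, those of genes in no such pair. Here a gene with several starts counts more than once, while each pair counts once. Of all 17492 protein-coding genes in the promoter table, paired or not, 42.5% had a peak over a start. The 995 peaks over both starts, at pairs of any gene type, had a median score of 221 (206 to 251). Those over single protein-coding starts had 131 (126 to 134). A peak over both starts must be wide enough to reach them, and the part of width in these scores was not tested. Among the strongest were the peaks between Nedd8, a ubiquitin-like modifier, and Gmpr2, a GMP reductase (score 8066, starts 355 bp apart), and between Erp44, an endoplasmic reticulum chaperone, and the ciliary gene Invs (7980, 125 bp apart). Mmachc, which processes cobalamin, shared a peak of score 7836 with Ccdc163.

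Among 7440 protein-coding genes with a peak over a start in the table, 567 (7.62%, 7.03 to 8.25%) had no peak assigned at all. Of these 567, 386 belonged to a divergent pair. The share of all 7440 genes in such pairs is not given here, so this count has no baseline. Partners of HCFC1 itself were among the 567 genes. The start of Asxl1, which encodes the activating subunit of the BAP1 deubiquitinase, lay under a peak of score 2491 that was assigned to 2500004C02Rik. Hcfc1r1, a regulator of HCFC1 localisation, lay under a peak of score 2300 assigned to Thoc6. Bap1 lay under one of score 382 assigned to Phf7, and Creb3, which carries an HCFC1-binding motif, under one of 1107 assigned to Tln1. These 4 genes were picked after their values were seen. In the deposited assignment each of them has no HCFC1 peak.

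Genes for HCFC1 and its partners were bound themselves. Of 23 DNA-binding proteins that recruit or bind HCFC1, 8 had a promoter-labelled peak and 20 had a peak within 1000 bp of a start. Over all protein-coding genes these shares were 23.5% and 44.2%. The interval of the first share for the 23 genes, 16.4 to 57.3%, included 23.5%. Max, the dimer partner of MYC, led among promoter-labelled peaks with a score of 4533, followed by Thap11 (3631), Gabpa (1228) and Zfp143 (823). Under other labels, Thap1 had 1325 in a 5' UTR peak and Zbtb17 had 1259 in an intron peak, both near a start. Of 27 genes for HCFC1 and the enzymes it is found with, 14 had a promoter-labelled peak. Among promoter-labelled peaks assigned to these genes, Hcfc1 had the highest score (1924), ahead of Setd1a, an H3K4 methyltransferase (1656), Rbbp5, a core subunit of those enzymes (1267), and Sap30 of the SIN3 deacetylase complex (1139). Cxxc1, a subunit that brings SETD1 enzymes to CpG islands, had a higher score of 3546 in a peak outside 1000 bp of its start, and Men1 had 1672 in an exon peak near its start. The Hcfc1 promoter held the ETS and YY1 elements and no ACTACAA in the window searched. Ogt, the glycosyltransferase that cleaves HCFC1, had no peak assigned and none over its start in the table.

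Scores of list members are those of promoter-labelled peaks assigned to the gene unless another label is given. Lists of housekeeping machinery stood above the share of all protein-coding genes by both counts. The members of all lists were chosen with earlier results of these data known, so the counts are descriptions. For the RNA exosome and mRNA decay, 19 of 30 genes had a promoter-labelled peak and 28 a peak within 1000 bp, with a median promoter score of 449. Over the 10 housekeeping and organelle lists these medians ran from 115.5 for the vacuolar ATPase and lysosome to 449, beside 107 for all protein-coding genes. Exosc1, a cap subunit of the exosome, had a score of 3378 and Cnot1, the scaffold of the deadenylase complex, 2339. Of 23 COPI and COPII coat genes, 11 had a promoter-labelled peak and 21 a peak within 1000 bp, led by Cope, a coatomer subunit (2378). Chromatin remodelling complexes had 15 and 23 of 26, led by Arid2 (965), and the anaphase-promoting complex and cullin ligases 15 and 24 of 28. Btrc, the F-box protein that recognises phosphorylated substrates such as β-catenin, had the fourth highest score of the whole list (12412).

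Organelle lists showed similar counts. Of 31 autophagy genes, 14 had a promoter-labelled peak and 27 a peak within 1000 bp. Nbr1, a cargo receptor, had a score of 7663, in a peak that also spanned the start of Brca1, 152 bp away. Map1lc3b, an LC3 protein of the autophagosome membrane, had a score of 1793. For the vacuolar ATPase and lysosome the counts were 10 and 24 of 28, led by Tfeb, the transcription factor of lysosomal genes (3331). The interval of the promoter share of this list, 18.6 to 55.9%, included the 23.5% of all protein-coding genes. Peroxisome biogenesis had 11 and 17 of 20, led among promoter-labelled peaks by Hsd17b4, an enzyme of peroxisomal fatty acid oxidation (1274), while Pex26, a peroxin of the membrane, had an exon peak of score 2029 centred 641 bp from its start. GPI anchor and N-glycan assembly had 14 and 27 of 34, led among promoter-labelled peaks by Pigu (1655), while Alg14 had an intron peak of score 1820 centred 356 bp from its start. Intraflagellar transport and the BBSome had 12 and 16 of 25, led by Ift88 (1630). The interval of their share within 1000 bp, 42.5 to 82.0%, included the 44.2% of all protein-coding genes. General transcription factors had 16 and 25 of 31, led by Gtf2h4, a TFIIH subunit (3484).

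Lists of tissue-restricted genes had few and weak peaks. Of 11 hepatocyte markers, 1 had a promoter-labelled peak and 4 had a peak within 1000 bp of a start. The intervals of these shares, 0.230 to 41.3% and 10.9 to 69.2%, included the 23.5% and 44.2% of all protein-coding genes. Among the 4 were the transcription factor genes Foxa2, Cebpa and Hnf4a. Their highest peaks near a start had scores of 141, 88 and 40, whatever their label. Alb, Afp, Apob, Fgb and Serpina1a, which encode secreted liver proteins, had no peak assigned. Of 32 coagulation and complement genes, 2 had a promoter-labelled peak, with scores of 37 each. Of 24 cytochrome P450 and conjugating enzymes, 3 did, led by Gstp1, a glutathione transferase (141). Hox genes had 4 of 38, with no promoter score above 56, keratins 3 of 24, collagens 1 of 22 and olfactory receptors 1 of 1110. The interval of the promoter share also included 23.5% for cytochrome P450 and conjugating enzymes, Hox genes and keratins.

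**Figure D4:**
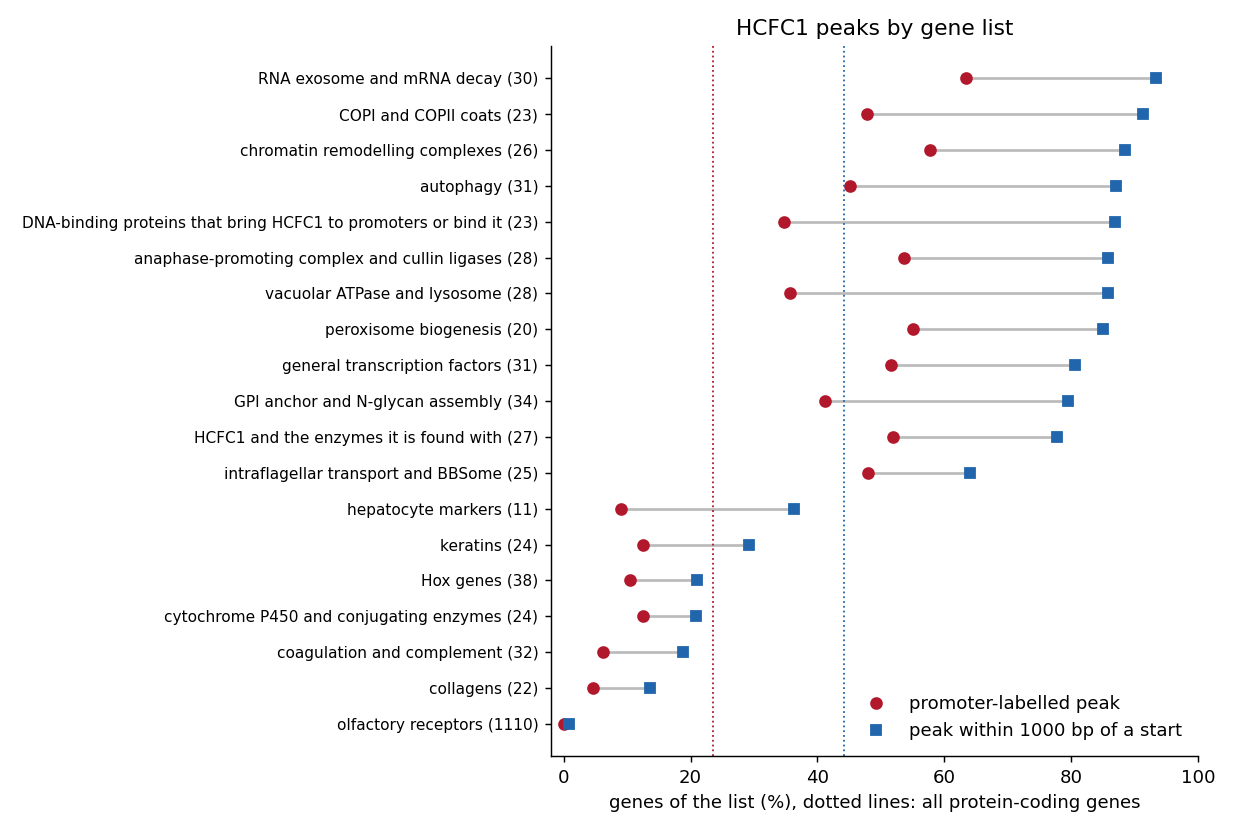
Percent of the genes of each list (number of genes in brackets) with a promoter-labelled peak (circles) and with a peak centred within 1000 bp of a start (squares). Dotted lines mark the same shares over all 21900 protein-coding genes, 23.5% and 44.2%. The housekeeping lists lie to the right of both lines and the tissue-restricted lists to the left. No intervals are drawn, and for some lists the interval includes the line.

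The elements shown above were counted over promoters ranked by HCFC1 score. Of the 5567 genes with a promoter-labelled peak, 4385 matched a sequence of 250 bases before to 50 after the start. Both strands were searched for 12 motifs. ACTACAA was in 152 of the 439 promoters of the top decile (34.6%, 30.2 to 39.3%), in 9.13% of decile 2. In the lower deciles the share lay between 0.456% in decile 5 and 3.19% in decile 9, and it was 2.05% in the bottom decile. Over all 32851 promoters of the table it was in 3.24%, and over the 20308 with no peak within 1000 bp in 2.64%. Promoters with a peak and ACTACAA had a median score of 1258 (1122 to 1430) and those without it 100 (95 to 104).

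Other elements were spread differently over the score range. CCGGAAG was in 26.0% of the top decile, 39.3% of decile 2, 21.9% of decile 5 and 8.45% of the bottom decile, beside 8.86% of all promoters. AAGATGG was in 13.7% of the top decile and 6.34% of all promoters. The SP and KLF element GGGCGGG was in 36.0% of the top decile, 59.2% of decile 5 and 25.6% of all promoters. The median GC content also differed between these promoters: it was 59.7% in the top decile, 61.3% in decile 2, 66.0% in decile 5 and 62.0% in the bottom decile. It was 52.7% over all promoters and 48.3% where no peak lay nearby. The share of GGGCGGG was highest where GC content was high, the shares of CCGGAAG and AAGATGG were not, and the part of GC content in the shares was not tested. TATAAA was in 5.92% of the top decile and 13.6% of all promoters. AAGGTCA, the element of ERR receptors, was in 2.51% and 4.72%.

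**Figure D5:**
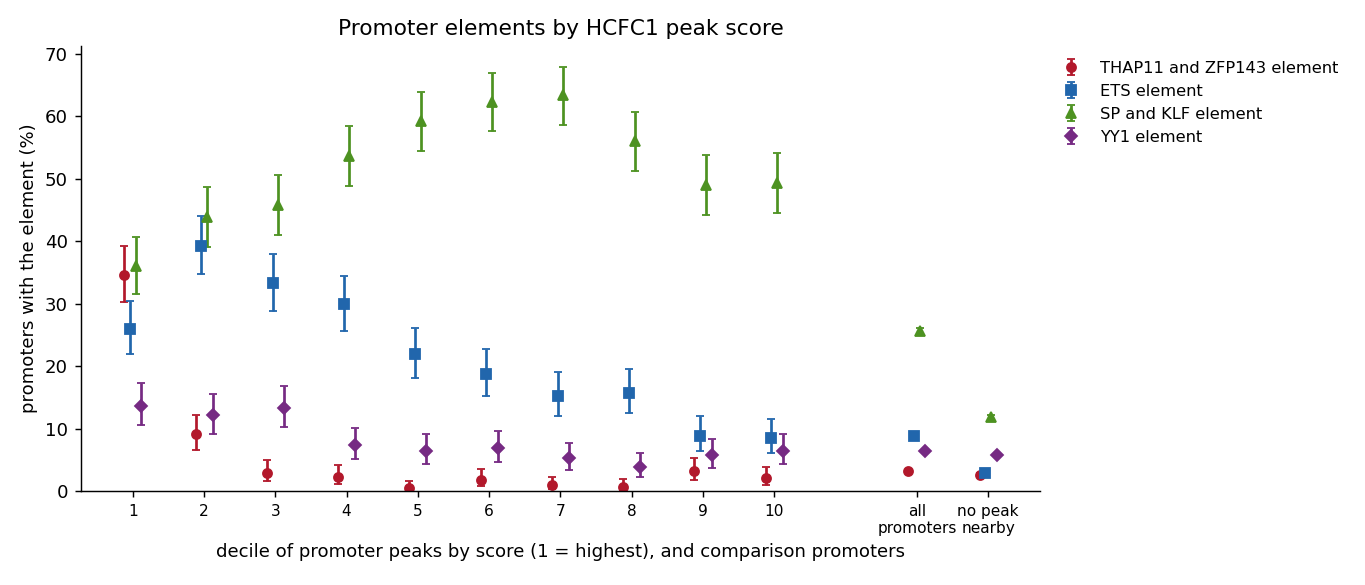
Percent of promoters (y axis) that hold each of 4 elements, by decile of promoter peaks by score (x axis, 1 is the highest), for all promoters of the table and for those with no peak within 1000 bp. Bars are exact 95% intervals for counting error. The THAP11 and ZFP143 element falls from 34.6% to 9.13% from decile 1 to decile 2, and the ETS element is highest in decile 2 at 39.3%.

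The bases after ACTACAA differed between sites under strong peaks and sites without a peak. Among 176 sites of the top decile with enough sequence around them, the bases at positions 11 and 12, counted from 1 at the first base of the element, were C in 94.3% and 93.2%, and at 509 sites of promoters without a peak nearby the commonest base at any flanking position made up at most 36.5%. A longer element was therefore defined after these values were seen, as ACTACAA followed by any base and TCCC. It is held by the sites of Fyco1, Erp44, Stau1, Fen1 and Stk25 printed above, and not by those of Ncln and Unk or by either Katnal1 site. The longer element was present at 127 of the 176 sites of the top decile (72.2%, 64.9 to 78.6%) and at 16 of the 509 (3.14%, 1.81 to 5.05%).

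All shares given for the longer element include the sites from which it was defined, so they are descriptions and no test of it. It was in 312 promoters of the table (0.9497%), which belong to 296 genes and hold 279 distinct positions of the element. An HCFC1 peak covered the start of 296 of these promoters (94.9%, 91.8 to 97.0%). The interval takes the promoters as independent, though some share a position of the element. A peak covered 24.2% (21.2 to 27.4%) of the 752 promoters with ACTACAA but not the longer element, and 29.5% of all starts. The peaks over starts with the longer element had a median score of 1704 (1474 to 1993), beside 143 (140 to 148) over all covered starts. The 16 exceptions had no peak within 1000 bp, and 11 of them were protein-coding. The protein-coding ones were the starts of 4930503B20Rik, Dnajb13, Kif5c, Rab3c, Rcn3, Rdh12, Slc39a5, Thap4, Zc4h2 and Zfp454, the last with a pair of starts. They were named after their values were seen, and Thap4 had another start under a peak of score 5081.

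Positions of the element could be read only within the window searched, from 250 bases before to 50 after the start. In the top decile the 180 ACTACAA sites had a median position of -94.5 bases from the start (quartiles -143.5 and -49, negative values upstream), 96.1% were upstream and 60.0% were on the strand of the gene. At least 2 sites stood in 27 of the 152 promoters, as at Katnal1. In the 125 promoters with 1 site, the peak centre was a median of 121 bp from the element (96 to 151). Its median distance from the start was 109 bp (77 to 146). The centre was nearer to the element than to the start in 66 of these 125 promoters (52.8%, 43.7 to 61.8%), so neither was the nearer beyond counting error.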

How the data were processed

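The authors deposited annotated HCFC1 peaks for control cells. The tools in the submitters' processing notes are HOMER 4.11.1, MACS2 2.1.1.20160309, Picard 2.0.1 and BWA 0.7.12, with mm10 as the build and no role stated for each. The deposited score of each peak is a whole number of unstated scale. How the IgG library, not analysed here, entered peak calling is likewise not given in the sources used here. Peak positions, labels, distances and gene names were used as deposited by the authors. From them, widths, score deciles (ties broken by chromosome and start), merged peaks and counts per gene were computed with Python 3.11.15, NumPy 2.4.6 and pandas 2.3.3. Shares carry exact Clopper-Pearson 95% intervals (SciPy 1.17.1) and medians order-statistic intervals. Gene identifiers were matched to RefSeq (GRCm38.p6; 14405 of 14421). Starts, gene pairs and sequences came from the RefSeq promoter table, because the gene table gives no strand; it held 78.8% of genes with a promoter peak. The overlap, merging, pairing, motif and interval steps were tested on simulated data. The members, gene lists and motifs were chosen with earlier results of these data known. Named were the strongest peaks of each label and chromosome, the 10 widest, the 10 genes with the most peaks, the strongest shared promoters and up to 4 leading members of a list, of which the text gives a part, and some are not reported here. Genes outside this rule are said to be so or show members without a peak. Alternatives were other score limits, distances, windows and merging.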

Additional observations from a re-analysis of the deposited data

How the results depend on the processing

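Of 47 recomputed values, 20 stayed within their counting interval and 27 moved. Among the 50% of peaks with the higher scores the promoter label share was 26.0% in place of 16.01%, intron 32.1%, intergenic 21.3%, the share within 1000 bp 51.1%, the median width 672 bp, protein-coding assignment 90.0%, genes with several peaks 33.7% and protein-coding genes with a promoter peak 19.7%. Merging peaks within 500 bp gave 29.8% intergenic, a width of 407 bp, 51.0% of genes with several peaks and 21.8% of protein-coding genes with a promoter peak. With a distance of at most 1000 bp in place of the label the promoter share was 31.4%, its share of the top decile 92.8% and protein-coding genes 44.2%, and with a peak over a start of the promoter table the last was 42.5%. The share within 1000 bp was 26.2% for a limit of 500 bp, 49.6% for 5000 bp and 29.6% from the peak edge. The promoter share was 59.6% in the top 5% of peaks and 44.6% in the top 20%. Divergent pairs with starts within 300 bp gave 64.7%. ACTACAA was in 20.3% of top promoters with a window of 100 bases before the start and in 21.9% of the top 20% of promoters. Without chromosomes 15 and 19, chosen after seeing the data, the promoter share was 16.8%, intergenic 28.4% and genes with several peaks 53.2%. No paired analysis was possible because each condition has 1 library and no test was made. With no counts and no replicate, the score of a single peak has no error, and a peak missing from the list says only that none was listed at this unknown depth.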

Other observations

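Among the other promoter motifs searched, CGCATGC, part of the palindrome bound by NRF1, was in 7.75% of the top decile and 3.58% of all promoters. GCGGGAA, an E2F element, was in 10.02% and 4.60%, TGACGT, the CREB element, in 12.3% and 7.51%, and the E-box CACGTG in 9.34% and 7.15%. CCAATCA, the NFY element, was in 7.97% and 7.82%, with 14.8% in decile 5. TGAGTCA, the AP-1 element, was in 2.96% and 5.20%. In the top decile, 39.9% of promoters held none of the elements of THAP11 and ZFP143, ETS proteins and YY1. Of the promoters there with the THAP11 and ZFP143 element, 19.7% also held the ETS element, beside 29.3% of those without it.

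Chromosome X held 302 peaks and chromosome Y 8. The strongest peak on X had a score of 2762, was labelled intergenic and lay 90829 bp from its nearest listed start, that of 4933407K13Rik. Of the 5 promoters on X with the longer element, 4 were covered by a peak (exact 95% interval 28.4 to 99.5%). Further list members without an assigned peak lay under peaks given to neighbours: Atg4b (score 5081, given to Thap4), Taf9 (2551, given to Ak6), Ift20 (1465, given to Tnfaip1) and Copa (1025, given to Ncstn). They were picked after their values were seen.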
